A study of Homo sapiens with 9 samples.

Results

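The genes described here are 10 transcripts used to mark mesenchymal stem or stromal cells: NT5E, ENG, THY1, MCAM, ALCAM, NGFR, PROM1, VIM, NES and S100A4. They were listed by name, with earlier results of these data known, and are 10 of the 60603 genes in the table of expected counts. Of these, 9 were found by symbol and MCAM by its identifier, ENSG00000076706.17, which the table pairs with the clone name AP002956.1. The cells were TC32, an established Ewing sarcoma line with the EWS::FLI1 fusion, and the genotype given for all of them was WT. In each group 3 biological replicates were sequenced as polyA RNA after 30 h, all from the batch labelled 1. The siEF group was plated on an siRNA across the breakpoint of EWS::FLI1, the siNEG group on a nonspecific siRNA, and the Media group is labelled as medium. The samples therefore cover a single line and a single time point.

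Mesenchymal stromal cells are adherent cells of bone marrow and connective tissue that can form bone, fat and cartilage. They are defined in culture by 3 surface proteins, CD73 (NT5E), CD105 (ENG) and CD90 (THY1), together with the absence of blood cell antigens. EWS::FLI1 joins the transactivating part of EWSR1 to the ETS DNA-binding domain of FLI1, which recognises the core GGAA, and a mesenchymal or neural crest cell is a proposed origin of Ewing sarcoma. Not all of the 10 genes encode surface proteins, since VIM and NES encode intermediate filament proteins and S100A4 a calcium-binding protein of the cytoplasm.

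As the fusion recognises GGAA, the 250 bases upstream of the annotated starts were searched for GGAA, and for GGAAGGAA as a tandem copy, on both strands (TTCC and TTCCTTCC). RefSeq promoters on GRCh38.p14 were found for 8 of the 10 genes, in 11 windows, and THY1 and NGFR had no entry. Each of the 11 windows held between 1 and 4 copies of GGAA, and 0 held GGAAGGAA. Of all 35116 windows of this length, 92.7% held at least 1 GGAA, with a median of 3 copies, and 3.06% held GGAAGGAA. The windows of NES and VIM, which rose in siEF, and of ALCAM, which fell, are shown 5′ to 3′ on the strand of the gene, with GGAA or TTCC in capitals. The NES window is chr1:156677408-156677657 on the minus strand, the VIM window chr10:17227991-17228240 on the plus strand and the ALCAM window chr3:105366659-105366908 on the plus strand.
NES: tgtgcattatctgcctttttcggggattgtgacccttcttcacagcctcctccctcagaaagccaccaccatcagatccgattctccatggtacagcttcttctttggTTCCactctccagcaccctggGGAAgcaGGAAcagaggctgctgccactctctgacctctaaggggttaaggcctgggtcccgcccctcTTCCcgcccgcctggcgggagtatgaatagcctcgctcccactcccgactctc
VIM: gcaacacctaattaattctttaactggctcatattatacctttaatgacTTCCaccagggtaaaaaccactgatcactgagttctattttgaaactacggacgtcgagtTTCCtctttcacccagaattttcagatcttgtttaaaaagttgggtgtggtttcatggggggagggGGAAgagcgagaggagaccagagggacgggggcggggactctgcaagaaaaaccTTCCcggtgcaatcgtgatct
ALCAM: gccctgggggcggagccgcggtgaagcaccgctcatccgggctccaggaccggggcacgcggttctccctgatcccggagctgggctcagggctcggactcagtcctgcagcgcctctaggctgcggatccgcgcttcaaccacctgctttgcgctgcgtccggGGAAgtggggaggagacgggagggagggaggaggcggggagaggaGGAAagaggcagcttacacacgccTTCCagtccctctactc
The NES and VIM windows held 4 copies each and the ALCAM window 3. Of the windows not shown, that of NT5E held 2 copies, ENG 3, MCAM 1 and S100A4 3, and those of PROM1 held 2 or 3. The core was thus present in all 3 windows shown, as in 92.7% of all windows.

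Libraries held between 20727706 and 33134581 expected counts. The 10 most abundant genes took 12.3% to 12.9% of the counts in siEF and 5.78% to 6.62% in the 6 other libraries. Levels are given below as CPM, the counts of a gene scaled to a library of 1000000 counts after TMM scaling. FLI1, the 3′ partner of the fusion and part of the target of siEF, read 38.4, 35.5 and 39.3 CPM in siEF, 48.6, 48.5 and 48.0 CPM in siNEG and 59.5, 56.2 and 57.9 CPM in Media. Its 3 siEF libraries were below all others, at -0.35 on the log2 scale against siNEG (SE 0.06, adjusted P = 2.88e-05, edgeR's quasi-likelihood test). The gene count does not separate the fusion transcript from other FLI1 transcripts, and the paper states that FLI1 itself is not expressed in these cells. According to the methods, silencing was checked by qPCR and gave a 3-cycle change in expression, a larger change than in this count. The reason for this difference was not tested. Among 10 genes known for Ewing sarcoma, the median log2 fold change between siEF and siNEG was -1.87. The cell cycle gene CCND1, among them, had means of 95.4 CPM in siEF and 1868 CPM in siNEG, and CD99, the antigen used in diagnosis, 189 CPM and 161 CPM.

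To compare the levels of different genes, CPM was divided by the length of the union of exons in kilobases. Per length, VIM was the most abundant of the 10 genes in every group, with 196 ± 5.33 CPM per kb in siNEG (SD, n = 3) and 413 ± 13.8 in siEF. In siNEG it was followed by ALCAM at 35.9 ± 0.987, NGFR at 18.5 ± 0.219, NT5E at 13.9 ± 0.437 and ENG at 9.23 ± 0.529 CPM per kb. Lower levels were measured for S100A4 at 6.07 ± 0.571, THY1 at 4.05 ± 0.233, NES at 0.988 ± 0.0274, MCAM at 0.675 ± 0.0457 and PROM1 at 0.0137 ± 0.00565 CPM per kb. No neighbours in this order overlapped in the siNEG libraries. In siEF, NT5E was next to VIM at 48.3 ± 2.02 CPM per kb, ahead of ALCAM at 21.3 ± 0.805, and NGFR was at 6.64 ± 0.373, behind S100A4 and ENG, whose libraries overlapped. The order in Media was that of siNEG, but S100A4 overlapped THY1 and NES overlapped MCAM. With the length of the longest transcript in place of the union of exons, 8 of the 10 genes kept their rank in siNEG and NES and MCAM changed places.

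**Figure D1:**
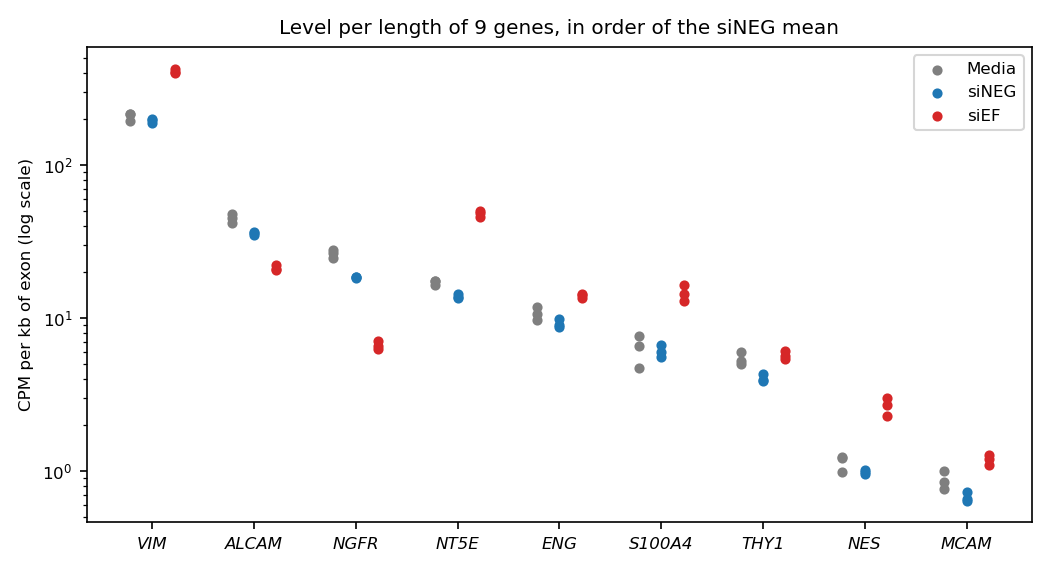
Level of 9 of the genes per kilobase of exon (CPM per kb, log axis) in the 3 groups, one point per library, in order of the siNEG mean. PROM1 is not drawn. VIM was highest in all groups, and NT5E ranked above ALCAM and NGFR in siEF but below both in siNEG.

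The comparison of siEF with siNEG asked how these transcripts changed when EWS::FLI1 was targeted. NT5E, ENG, THY1, MCAM, VIM, NES and S100A4 rose and NGFR and ALCAM fell, while PROM1 was too low to be tested. Thus 7 of the 9 genes tested were higher at an adjusted P under 0.01, as were 33.6% of all 16093 genes tested, and 2 were lower, against 31.7% of all genes. When a log2 fold change beyond 1 was also required, 4 were called higher (NT5E, NES, S100A4 and VIM), against 17.1% of all genes, and 1 lower (NGFR), against 11.7%. The median log2 fold change of the 9 was 0.81, and that of all genes 0.05. The libraries of siEF and siNEG did not overlap for any of the 9, with 7 higher in siEF (39.8% of all genes did so) and 2 lower (37.1%). In RNA from bulk cultures, more cells that express a gene and more RNA per cell cannot be told apart.

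Of the 3 defining surface antigens, NT5E changed most. NT5E (ENSG00000135318.12, chr6:85449584-85495791, plus strand, GRCh38 as in GENCODE release 44) encodes CD73, the enzyme that turns extracellular AMP into adenosine. It read 221, 209 and 227 CPM in siEF, 62.0, 65.1 and 61.5 CPM in siNEG and 74.7, 78.7 and 79.4 CPM in Media. The 3 groups did not overlap, and siEF stood well above both controls. Means were 219 ± 9.15 CPM in siEF and 62.9 ± 1.98 CPM in siNEG (SD, n = 3), a 3.48-fold difference (log2 fold change 1.80, SE 0.05, adjusted P = 8.74e-15, edgeR).

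ENG (ENSG00000106991.13, chr9:127815013-127854658, minus strand) encodes endoglin, CD105, an accessory receptor for ligands of the TGF-β and BMP family. ENG read 54.4, 55.5 and 52.3 CPM in siEF, 34.9, 33.7 and 37.7 CPM in siNEG and 45.7, 41.0 and 37.5 CPM in Media. All siEF libraries were above the 6 others, and siNEG and Media overlapped. The mean was 54.1 ± 1.64 CPM in siEF and 35.5 ± 2.03 CPM in siNEG (SD, n = 3), and the log2 fold change was 0.61 (SE 0.07, adjusted P = 8.85e-07, edgeR).

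THY1 (ENSG00000154096.13, chr11:119415476-119424985, minus strand) encodes CD90, a small GPI-anchored glycoprotein of fibroblasts, neurons and stromal cells. Its libraries read 37.5, 42.0 and 39.3 CPM in siEF, 29.8, 26.8 and 27.2 CPM in siNEG and 41.2, 34.6 and 35.9 CPM in Media. The siEF libraries were above those of siNEG and overlapped those of Media. Against siNEG, at 27.9 ± 1.61 CPM, the mean of siEF was 39.6 ± 2.23 CPM (SD, n = 3), which is 0.50 on the log2 scale (SE 0.07, adjusted P = 1.36e-05, edgeR). The antisense genes USP2-AS1 and THY1-AS1 overlap its exons and had at most 40 and 5 counts in any library, against at least 849 for THY1.

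The other surface proteins did not move in a single direction. MCAM (ENSG00000076706.17, chr11:119308529-119321521, minus strand) encodes CD146, an adhesion molecule of perivascular stromal and endothelial cells. MCAM read 8.17, 9.40 and 8.88 CPM in siEF, 4.90, 5.39 and 4.74 CPM in siNEG and 5.65, 7.39 and 6.29 CPM in Media. The siEF group was highest and siNEG lowest, with no overlap among the 3 groups. The difference on the log2 scale was 0.81 (SE 0.12, adjusted P = 1.95e-05, edgeR) between means of 8.82 ± 0.621 and 5.01 ± 0.339 CPM (SD, n = 3). MCAM shares 509 exonic bases with CBL on the opposite strand. CBL was far more abundant, with 1096 to 3153 counts per library against 148 to 259 for MCAM. As the strand setting of the counting is not given in the sources used here, reads of the 2 genes may be mixed. CBL, a ubiquitin ligase, was lower in siEF, at -0.58 on the log2 scale (adjusted P = 3.15e-05, edgeR).

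ALCAM (ENSG00000170017.12, chr3:105366909-105576900, plus strand) encodes CD166, an adhesion molecule that binds itself and CD6. It read 159, 149 and 149.9 CPM in siEF, 259, 264 and 250.2 CPM in siNEG and 302, 327 and 344 CPM in Media. Every siEF library was below every control library, and Media was above siNEG. The siEF mean of 153 ± 5.78 CPM was 59.3% of the siNEG mean of 258 ± 7.08 CPM (SD, n = 3), or -0.75 on the log2 scale (SE 0.05, adjusted P = 7.13e-10, edgeR).

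NGFR (ENSG00000064300.9, chr17:49495293-49515008, plus strand) encodes CD271, the p75 neurotrophin receptor, an antigen of neural crest cells that is also used to isolate stromal cells from marrow. NGFR read 26.1, 29.1 and 27.2 CPM in siEF, 76.8, 75.4 and 77.1 CPM in siNEG and 116, 111 and 103 CPM in Media. The 3 groups were apart, with siEF lowest. Its mean of 27.5 ± 1.54 CPM in siEF was 35.9% of the 76.4 ± 0.909 CPM in siNEG (SD, n = 3), or -1.48 on the log2 scale (SE 0.06, adjusted P = 1.31e-12, edgeR), the only call of a lower level among the 9 genes. The antisense gene NGFR-AS1 had at most 2 counts in any library.

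PROM1 (ENSG00000007062.11, chr4:15963076-16084378, minus strand) encodes CD133, a pentaspan protein of membrane protrusions that is used as a stem cell antigen. It had 2, 0 and 6 counts in siEF, 3, 5 and 2 in siNEG and 3, 2 and 0 in Media, too few for a test. A difference between the groups was not detectable at this depth, since a count of 0 allows up to 3 counts, between 0.0884 and 0.147 CPM across the libraries, for counting error only. FGFBP2, a secreted protein gene that shares 166 exonic bases with PROM1 on the same strand, had 87, 87 and 98 counts in siEF and 0, 1 and 0 in siNEG.

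The transcripts of the 2 filament proteins and of S100A4 were all called higher. VIM (ENSG00000026025.16, chr10:17228241-17237593, plus strand) encodes vimentin, the main intermediate filament protein of mesenchymal cells. VIM read 2082, 2219.8 and 2117 CPM in siEF, 986, 1018 and 1041 CPM in siNEG and 1115, 1114 and 1012 CPM in Media. The siEF libraries stood apart from the 6 controls, which overlapped each other. Means of 2139.9 ± 71.4 CPM in siEF and 1015 ± 27.6 CPM in siNEG (SD, n = 3) gave a 2.11-fold difference (log2 fold change 1.08, SE 0.05, adjusted P = 3.65e-12, edgeR). The antisense gene VIM-AS1 shares 656 exonic bases with it but had between 64 and 148 counts, against 28983 to 61778 for VIM.

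NES (ENSG00000132688.11, chr1:156668763-156677407, minus strand) encodes nestin, a filament protein of neural progenitors and of perivascular stromal cells. NES read 12.7, 15.1 and 16.8 CPM in siEF, 5.50, 5.66 and 5.35 CPM in siNEG and 6.82, 6.73 and 5.52 CPM in Media. Its siEF libraries were spread more widely than those of siNEG, but all were above the controls. The mean was 14.9 ± 2.05 CPM in siEF and 5.50 ± 0.153 CPM in siNEG (SD, n = 3), a difference of 1.43 on the log2 scale (SE 0.12, adjusted P = 1.24e-08, edgeR).

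S100A4 (ENSG00000196154.12, chr1:153543613-153550136, minus strand) is also known as fibroblast-specific protein, and its product binds non-muscle myosin. The libraries read 13.5, 15.6 and 12.3 CPM in siEF, 6.32, 5.25 and 5.67 CPM in siNEG and 7.22, 6.22 and 4.47 CPM in Media. Again siEF was above all controls, and Media and siNEG overlapped. S100A4 averaged 13.8 ± 1.65 CPM in siEF and 5.75 ± 0.540 CPM in siNEG (SD, n = 3), a 2.39-fold difference (log2 fold change 1.26, SE 0.15, adjusted P = 7.78e-07, edgeR). Its SE was the largest of the 9 genes tested. The neighbour S100A3, whose span overlaps that of S100A4 without shared exonic bases, had 30, 28 and 39 counts in siEF and 1, 3 and 1 in siNEG.

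**Figure D2:**
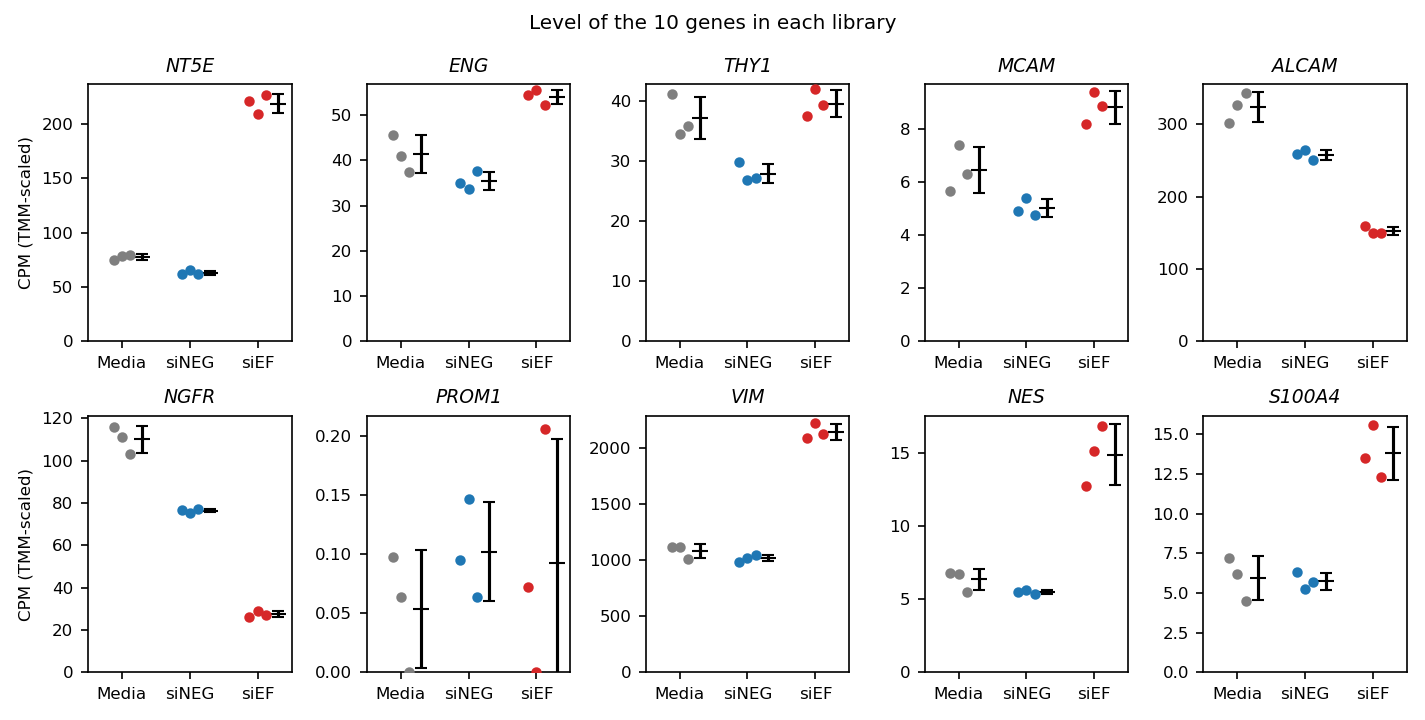
CPM of each of the 10 genes in the 9 libraries, with 1 panel per gene and its own axis from 0, points for libraries and bars for mean ± SD (n = 3, cut at 0 for PROM1). The siEF points lay above those of siNEG for 7 genes and below for ALCAM and NGFR, and PROM1 was near 0 in all groups.

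In a test against the cut-off itself (edgeR's glmTreat), NT5E and NES were called higher and NGFR lower, and VIM and S100A4 were no longer called. The estimates of VIM and S100A4 thus lay near the cut-off, and both genes still passed the test against no change.

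The comparison of siNEG with Media asked how the same genes differed between the nonspecific siRNA group and the medium group. The siRNA itself and its delivery were not tested apart. No gene of the 10 was called at a log2 fold change beyond 1, as only 0.162% of all genes were called higher and 0.267% lower, and DESeq2 also called 0. All 9 genes tested nevertheless had estimates below 0, against 50.2% of all genes, with a median log2 fold change of -0.30, against -0.00. At an adjusted P under 0.01, 4 passed as lower (5.96% of all genes) and 0 as higher (3.83%), while at an unadjusted P under 0.05 edgeR gave 6 lower (16.3% of all genes) and 0 higher (13.9%). The 4 were NGFR at -0.52 (SE 0.06, adjusted P = 6.69e-06, edgeR), THY1 at -0.42 (SE 0.07, adjusted P = 0.000938), ALCAM at -0.33 (SE 0.05, adjusted P = 0.000192) and NT5E at -0.30 (SE 0.05, adjusted P = 0.000376). The libraries did not overlap for 5 of the 9 genes, all lower in siNEG (17.3% of all genes), and 0 were higher without overlap (15.5%). MCAM, one of the 5, at -0.36 (SE 0.13, adjusted P = 0.0588, edgeR), and ENG, at -0.22 (SE 0.07, adjusted P = 0.0401), did not pass. Nor did NES at -0.21 (SE 0.13, adjusted P = 0.288, edgeR), VIM at -0.09 (SE 0.05, adjusted P = 0.214) or S100A4 at -0.06 (SE 0.15, adjusted P = 0.842). Without Media replicate 3, ENG passed as well, at -0.29 (adjusted P = 0.00926, edgeR).

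The third comparison, siEF with Media, shares its libraries with the other comparisons and is not independent of them. Relative to Media, 6 genes passed as higher (33.6% of all genes) and 2 as lower (32.3%), with a median log2 fold change of 0.45, against 0.04 over all genes. NT5E, NES and S100A4 were called higher (3 genes, against 17.4% of all genes) and NGFR and ALCAM lower (2 genes, against 12.5%). NT5E stood at 1.50 (SE 0.05, adjusted P = 6.14e-14, edgeR), NES at 1.22 (SE 0.12, adjusted P = 7.94e-08) and S100A4 at 1.20 (SE 0.15, adjusted P = 1.38e-06). VIM fell just short of the cut-off at 0.99 (SE 0.05, adjusted P = 1.04e-11, edgeR). It was called with upper quartile scaling (1.09), with at least 10 counts required in every library, and without siEF replicate 1 or Media replicate 1. ENG, at 0.38 (SE 0.07, adjusted P = 0.000128, edgeR), passed with a smaller change. NGFR fell by 2.0 on the log2 scale (SE 0.06, adjusted P = 2.94e-14, edgeR), to 25.0% of Media. ALCAM was at 47.1% of Media (log2 fold change -1.09, SE 0.05, adjusted P = 6.55e-12, edgeR), and upper quartile scaling moved it to -0.99 and out of the call.

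Against Media, THY1 did not pass and MCAM passed narrowly. Between siEF and Media, THY1 differed by 0.09 on the log2 scale (SE 0.07, adjusted P = 0.297, edgeR), where the libraries overlapped. MCAM stood at 0.45 (SE 0.12, adjusted P = 0.00356, edgeR) and did not pass with DESeq2 at 0.43 (adjusted P = 0.0109). It also failed without siEF replicate 2 (0.40, edgeR adjusted P = 0.0166) or 3 (0.44, adjusted P = 0.013) and without Media replicate 1 (0.35, adjusted P = 0.0231) or 3 (0.42, adjusted P = 0.0133). NT5E, upward, and NGFR, downward, were called against either control, also in the test against the cut-off.

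**Figure D3:**
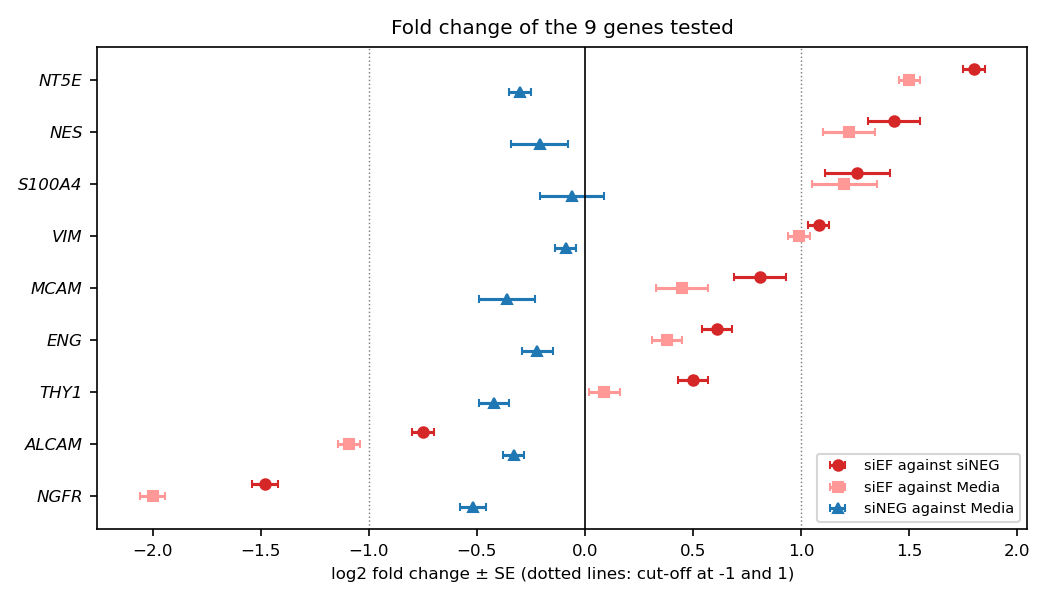
Log2 fold change ± SE of the 9 genes tested in the 3 comparisons (edgeR), with the cut-offs at 1 and -1 marked. For siNEG against Media all 9 estimates lay between -0.52 and -0.06, and for siEF NT5E was the highest and NGFR the lowest against either control.

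Genes related to these 10 by function were followed in the comparison of siEF with siNEG, where 17.1% of all genes were called higher and 11.7% lower with a median log2 fold change of 0.05. A gene at low counts in both controls entered the test only if it was high in siEF, so such genes could only be found to rise. They are named or counted for each list, and no conclusion is drawn from their P values. Over all genes there were 1047 of them, and of the other 15046 genes 2065 were called higher and 1882 lower (median -0.02). These 15046 still include 315 genes that no siEF library brought to the filter. They entered through the control libraries, a selection that leans towards a fall in siEF. Among 23 other surface antigens of stromal, skeletal stem or perivascular cells, 20 were tested, 13 were called higher and 0 lower, with a median of 1.92. Of the 20, 4 reached the filter only through siEF, ITGA11 among them, and 9 of the other 16 were called higher (median 1.18). At an unadjusted P under 0.05, edgeR gave 19 higher (39.2% of all genes) and 0 lower (36.3%), and DESeq2 called 0 lower. These counts include the 4 genes that could only be found to rise, so no conclusion is drawn from them. PDGFRA, a growth factor receptor of mesenchymal progenitors, had means of 112 ± 3.33 CPM in siEF and 2.01 ± 0.255 CPM in siNEG (SD, n = 3), 5.80 apart on the log2 scale (SE 0.09, adjusted P = 1.49e-17, edgeR). ANPEP, the aminopeptidase CD13, rose from 0.314 ± 0.201 to 6.88 ± 0.109 CPM (log2 fold change 4.45, SE 0.31, adjusted P = 1.03e-09, edgeR). ITGA11, a collagen receptor subunit, rose from a mean of 0.101 to 2.14 CPM (log2 fold change 4.33, SE 0.54, adjusted P = 1.94e-06, edgeR).

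The partners of the surface proteins moved in both directions. Of 15 other genes of extracellular adenosine metabolism, the pathway of NT5E, 13 were tested, 3 were called higher and 2 lower, with a median of 0.80. DPP4 and 3 others reached the filter only through siEF, and of the other 9 genes 1 was called higher and 2 lower (median -0.67). DPP4, which binds adenosine deaminase, had 50, 28 and 68 counts in siEF and 3, 1 and 1 in siNEG (adjusted P = 2.61e-07, edgeR). ALPL, the 1 called higher among the other 9, rose from 1.89 ± 0.389 to 4.45 ± 0.292 CPM (log2 fold change 1.24, SE 0.20, adjusted P = 2.87e-05, edgeR). ENPP1, which makes AMP from ATP, fell by 1.91 (SE 0.07, adjusted P = 1.97e-13, edgeR) and the nucleoside transporter SLC29A1 by 1.76 on the log2 scale (SE 0.06, adjusted P = 1.5e-13). For ENG, 11 of 13 genes of the receptor family and its ligands were tested, 3 were called higher and 1 lower, with a median of 0.18, or 2 and 1 of 10 (median 0.17) without ACVRL1, which reached the filter only through siEF. TGFBR2 rose from 34.0 ± 0.405 to 217 ± 8.68 CPM (log2 fold change 2.67, SE 0.06, adjusted P = 1.97e-15, edgeR) and TGFBR3, the other accessory receptor, from 36.4 ± 2.52 to 221 ± 9.21 CPM (2.60, SE 0.07, adjusted P = 5.16e-15). ACVRL1, the type I receptor to which endoglin presents its ligands, rose from 0.343 ± 0.0732 to 5.55 ± 0.413 CPM (4.0 on the log2 scale, SE 0.25, adjusted P = 3.42e-10, edgeR), and the ligand TGFB3 fell (-1.10, SE 0.17, adjusted P = 2e-05).

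For NGFR, 12 of 16 genes of neurotrophin signalling were tested, 4 were called higher and 2 lower, with a median of 0.41. SORCS1 was among 3 that reached the filter only through siEF, and of the other 9 genes 1 was called higher and 2 lower (median -0.05). The ligand BDNF fell from 7.91 ± 0.628 to 0.839 ± 0.135 CPM (log2 fold change -3.21, SE 0.17, adjusted P = 3.34e-11, edgeR) and the transcript of its receptor NTRK2 to 4.01 ± 0.299 CPM (-1.81, SE 0.11, adjusted P = 2.26e-10). The sorting receptor SORCS1 had 149, 86 and 177 counts in siEF and 6, 8 and 7 in siNEG. BEX3, which binds the p75 receptor, rose by 1.19 (SE 0.04, adjusted P = 4.2e-13, edgeR). Thus NGFR, BDNF and NTRK2 were lower in siEF while BEX3 was higher. Among 14 partners of THY1, MCAM, ALCAM and PROM1, 9 were tested, 5 were called higher and 0 lower, with a median of 1.05, and at an unadjusted P under 0.05 edgeR gave 1 lower. L1CAM, a neural adhesion molecule, rose from 0.243 ± 0.159 to 27.4 ± 1.20 CPM (6.76, SE 0.22, adjusted P = 8.81e-14, edgeR), LAMA4, a laminin chain bound by MCAM, from 71.8 ± 3.12 to 569 ± 3.37 CPM (2.98, SE 0.05, adjusted P = 3.01e-17) and LGALS3, a galectin, from 3.38 ± 0.328 to 27.7 ± 1.93 CPM (3.03, SE 0.11, adjusted P = 2.07e-13).

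Relatives of the intracellular markers were counted in the same way. Of 10 other intermediate filament genes, 7 were tested and 3 were called higher and 0 lower, with a median of 0.85. Without SYNC and DES, which reached the filter only through siEF, 1 of 5 was called higher (median 0.38). Over all 7, at an unadjusted P under 0.05 edgeR gave 1 lower. The muscle filament genes SYNC (4.27, SE 0.41, adjusted P = 7.99e-08, edgeR) and DES (3.41, SE 0.35, adjusted P = 1.67e-07) rose from low levels, and the neuronal INA from 16.2 ± 0.901 to 43.5 ± 1.23 CPM (1.43, SE 0.06, adjusted P = 3.55e-12). GFAP, of astrocytes, had at most 1 count in any library. Of 18 other S100 genes 9 were tested, 8 were called higher and 0 lower, with a median of 2.48. S100A1, S100A3 and S100P reached the filter only through siEF, and of the other 6 genes 5 were called higher (median 1.39). Over all 9, at an unadjusted P under 0.05 edgeR gave 9 higher (39.2% of all genes) and 0 lower (36.3%). These counts include S100A1, S100A3 and S100P, which could only be found to rise, so no conclusion is drawn from them. S100A16 rose from 1.13 ± 0.169 to 9.92 ± 0.848 CPM (3.13, SE 0.17, adjusted P = 4.74e-11, edgeR). S100A1 had 24, 34 and 27 counts in siEF and 3 in each siNEG library (adjusted P = 1.12e-05, edgeR). S100A3, the neighbour of S100A4 named above, was called too (adjusted P = 6.15e-07, edgeR).

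**Figure D4:**
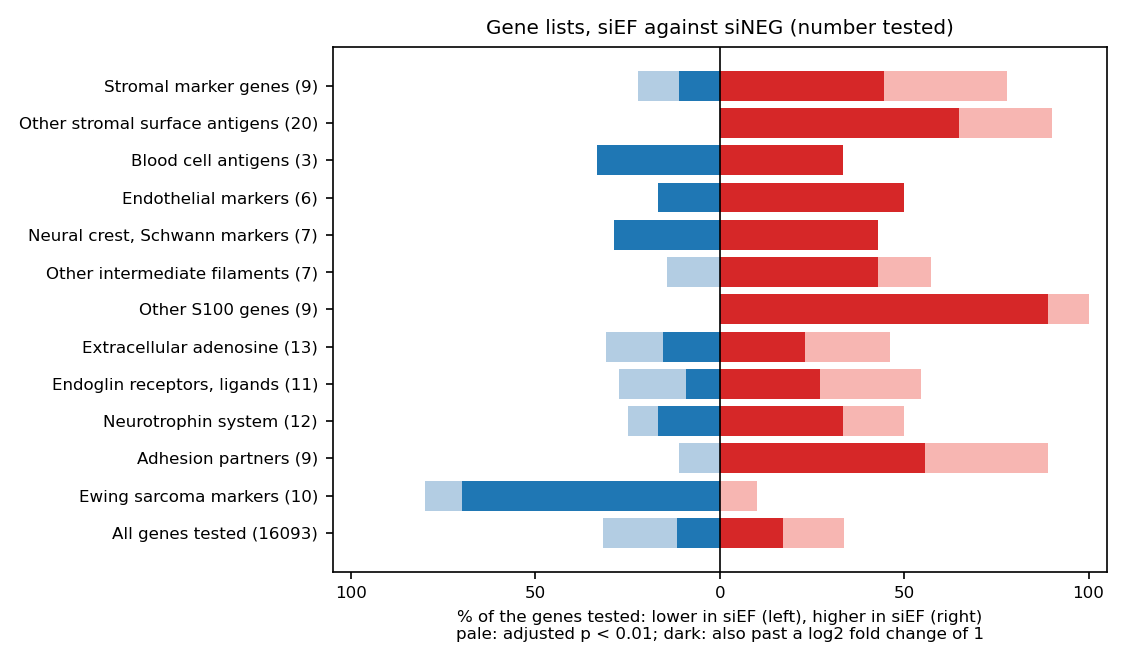
Percent of the tested genes of each list (number tested in brackets) that were lower (left, blue) or higher (right, red) in siEF than in siNEG, with pale bars for an adjusted P under 0.01 and dark bars for those also past a log2 fold change of 1 (edgeR). The bottom row gives all 16093 genes tested, of which 17.1% were called higher and 11.7% lower. Genes that reached the filter only through siEF are included.

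Markers of other cell types were measured beside these results. Of 8 blood cell antigens 3 could be tested, 1 was called higher and 1 lower, and their summed level was 2.19 to 2.57 CPM in siEF, 1.27 to 1.77 in siNEG and 1.86 to 2.54 in Media. CD34, of blood progenitors and endothelium, which reached the filter only through siEF, had 36, 28 and 33 counts in siEF and 4, 2 and 3 in siNEG (adjusted P = 2.22e-05, edgeR). CD79A, of B cells, named after its values were seen and at the filter in no siEF library, fell by 1.61 on the log2 scale (SE 0.42, adjusted P = 0.00268, edgeR). HLA-DRA and HLA-DRB1 had 0 counts in all 9 libraries, and PTPRC, the common leukocyte antigen, had 0 in siEF and at most 6 in any other library. The summed level of 10 endothelial genes was 14.4 to 17.1 CPM in siEF, 7.52 to 8.62 in siNEG and 5.81 to 6.77 in Media. Of the 6 tested 3 were called higher and 1 lower. CDH5, CLDN5 and TEK reached the filter only through siEF, and of the other 3 genes 1 was called higher and 1 lower (median -0.27). CLDN5, a tight junction gene, had 144, 121 and 126 counts in siEF and 1, 2 and 0 in siNEG (adjusted P = 3.23e-10, edgeR), TEK rose (3.40, SE 0.40, adjusted P = 8.06e-07) as did EMCN (2.32, SE 0.32, adjusted P = 5.71e-06), and PECAM1 fell (-1.22, SE 0.22, adjusted P = 8.43e-05). TIE1 and ERG were at 0 counts in every library and VWF had at most 3.

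Of 10 neural crest and Schwann cell genes 7 were tested, and 3 were called higher and 2 lower. Their summed level was 133 to 148 CPM in siEF, 61.0 to 66.0 in siNEG and 70.9 to 71.8 in Media. Most of this sum was TFAP2A, with means of 76.2 CPM in siEF and 34.4 CPM in siNEG, and ETS1, with 43.0 and 14.9 CPM. SNAI2 (3.40, SE 0.17, adjusted P = 2.25e-11, edgeR), ETS1 (1.53, SE 0.08, adjusted P = 4e-11) and TFAP2A (1.15, SE 0.06, adjusted P = 3.9e-11) rose. TFAP2B (-2.27, SE 0.18, adjusted P = 6.05e-09, edgeR) and FOXD3 (-1.64, SE 0.18, adjusted P = 3.09e-07) fell. SOX10, which defines the lineage, was at 0 counts in all libraries. The summed level of the 10 markers themselves was 2615 to 2744 CPM in siEF, 1465 to 1510.1 in siNEG and 1628 to 1726 in Media, most of it VIM. The part of blood, endothelial and neural crest transcripts in the changes of the 10 markers was not tested.

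Among the Ewing sarcoma genes, 10 of 10 were tested, 7 were called lower and 0 higher, while at an unadjusted P under 0.05 edgeR gave 2 higher. CCND1 fell by 4.29 on the log2 scale (SE 0.06, adjusted P = 6.51e-18, edgeR), the nuclear receptor NR0B1 fell by 2.97 (SE 0.08, adjusted P = 7e-15), and PAX7, a transcription factor of muscle progenitors, fell by 2.87 (SE 0.21, adjusted P = 1.81e-09). DESeq2 called 0 of them higher.

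The genes whose log2 CPM over the 9 libraries was most like that of NT5E, by Pearson's r, were ELL2, PTCH1 and C1QTNF1, each at 0.999, and 2154 of 16092 genes were above 0.95. For NGFR, ZMYND19 and NKX2-2 were among the most like, each at 0.999, with 2146 genes above 0.95. These values describe 9 libraries that fall into 3 groups. The group means were in the order siNEG, Media, siEF from low to high for NT5E and siEF, siNEG, Media for NGFR.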

How the data were processed

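RNA of TC32 cells was measured in 9 libraries, 3 each of siEF, siNEG and Media, grouped by their labels. According to the methods, the authors mapped reads to hg38 with STAR and quantified genes with RSEM, and the submitters' processing notes name cutadapt 2.10, FastQC and DESeq2 1.32.0. The labels name a small RNA library kit, and the annotation release and strand setting are not given in the sources used here. The authors deposited expected counts per gene, unscaled and per replicate, in 9 columns, all used. All 9 libraries had between 4011 and 4395 fractional values.

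Rounded expected counts were filtered by edgeR's filterByExpr, which kept 16093 genes, and scaled by TMM (factors 0.970 to 1.03). The quasi-likelihood test (edgeR 4.0.16, R 4.3.3) had 1 mean per group and a spread shared by the 9 libraries. P values were adjusted by Benjamini-Hochberg over all genes tested. SEs were obtained from the log2 fold change and the F statistic. Genes passed at an adjusted P under 0.01 and were called if the log2 fold change was also beyond 1. Positions and lengths came from GENCODE release 44 (60306 of 60603 identifiers found). No columns were identical, and pairs within a group differed by more than sampling noise (chi-square per degree of freedom 3.57 to 23.2).

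Alternatives were upper quartile and RLE scaling, DESeq2 1.42.0, other filters on low counts, a fit to 6 libraries alone, a block for the replicate number, other thresholds, each library left out in turn and the longest transcript as gene length. The fits were tested on simulated data in which 200 of 15729 genes were changed 3-fold in siEF, up or down. Of the changed genes 193 were called, and of the unchanged genes 0. Far more genes differed between siEF and siNEG in the real data, so the simulation does not test the scaling under such a broad change. The 10 genes, the lists and the tests were chosen with earlier results of these data known. Every member was named, with FLI1, overlapping genes, and from each list up to 3 called rises and 3 called falls of siEF against siNEG with the largest change at a mean of 1 CPM or more in the higher group. Other list genes outside this rule were not named, except for CD79A, CD99, CDH5, S100P and markers at or near 0. For NT5E and NGFR genes among the 3 with the highest Pearson's r of log2 CPM (prior count 2) were also named. Some genes that these rules select are not reported here.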

Additional observations from a re-analysis of the deposited data

How the results depend on the processing

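All 9 genes tested kept their direction and their side of the threshold for siEF against siNEG in every scaling, filter, tool and left-out library. Upper quartile scaling raised the median log2 fold change of all genes by 0.09 against siNEG and by 0.10 against Media. The test against the cut-off called 2 genes higher and 1 lower for siEF against siNEG, and 1 higher and 1 lower for siEF against Media. Upper quartile scaling also left 1 gene called lower for siEF against Media, NGFR, and called 4 higher, VIM among them. S100A4, not past the threshold for siNEG against Media, had 0.00 without siNEG replicate 2 and 0.10 without Media replicate 1, within a range of -0.23 to 0.10. With each library left out, siEF against siNEG called 4 higher and 1 lower throughout, and siEF against Media called 3 to 4 higher and 2 lower, while 5 to 6 passed as higher and 2 as lower. In siNEG against Media 4 to 5 genes passed as lower, as did 5 at an adjusted P under 0.05.

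Correlations of same-numbered libraries were between -0.09 and 0.05, so the numbers do not pair them. With the replicate number as a block, 4 genes were called higher and 1 lower for siEF against siNEG, 3 and 2 for siEF against Media and 0 and 0 for siNEG against Media, where 4 passed as lower, and no call changed. FLI1 stayed lower in siEF, at -0.27 with upper quartile scaling. In the 3 settings tried for the lists, counts of calls stayed within 1.5 times.

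Depth left PROM1 untested, with at most 6 counts per library. The 9 genes tested had at least 128 counts in every library.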
